A study of Mus musculus with 24 samples.

Results

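The genes described here are 9 genes of the primitive endoderm, the extraembryonic lineage that segregates from the pluripotent epiblast in the blastocyst. They are Pdgfra, Gata4, Gata6, Sox17, Sox7, Foxa2, Dab2, Cubn and Amn, and they were found by symbol among the 37315 genes measured during reprogramming of mouse neural precursor cells (NPCs) to induced pluripotent stem cells. Pdgfra was chosen by its normalized counts, which were higher after interferon γ (IFNγ) in day 7 X-GFP–medium cells, so that contrast is given for every member as a description with no test. The other 8 were listed beside it as genes of the same lineage, with earlier results of these data known. Counts of members called are thus set beside the share of all genes as a description, not as a test of the set.

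In the blastocyst, FGF signaling and GATA6 turn cells of the inner cell mass toward primitive endoderm, while NANOG maintains the epiblast program. The committed cells carry the receptor PDGFRA and express SOX17, GATA4 and SOX7, and the lineage later gives rise to visceral and parietal endoderm. Visceral endoderm takes up maternal protein through the cubilin–amnionless receptor and megalin (LRP2), with DAB2 as the endocytic adaptor. None of these genes is exclusive to the lineage, since Pdgfra also marks mesenchyme and oligodendrocyte precursors and Foxa2 is expressed in floor plate and definitive endoderm.

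RNA was measured in 24 libraries, 2 of each of 12 populations. All came from 1 female embryonic stem cell (ESC) line, a cross of M. musculus (129S1/SvImJ) and M. castaneus (CAST/EiJ), which carries X-GFP (a GFP reporter at Hprt of the M. musculus X chromosome), a truncated Tsix allele, a Nanog promoter-RFP reporter and a doxycycline-inducible MKOS cassette (cMyc, Klf4, Oct4 and Sox2) with rtTA in Sp3. The 2 reference populations were these ESCs and the NPCs derived from them, sorted as negative for SSEA1, P-RFP and X-GFP. NPCs were reprogrammed with doxycycline, ascorbic acid and LIF on irradiated male mouse embryonic fibroblast feeders, either without IFNγ (control) or with 10 ng/ml IFNγ from day 0 to 5. Cells of both arms were sorted at day 2 as CFSE-negative, the feeders having been stained with that dye, at day 5 as SSEA1+, and at day 7 as SSEA1+ cells in 3 grades of X-GFP, namely negative, medium and high. The day 7 cells had thus been without IFNγ since day 5, and X-GFP marks reactivation of the silent X chromosome. The 3 grades were separated from the same SSEA1+ cells, while the tests treated their libraries as independent. Pdgfra was chosen in the medium grade, so its tests in the other grades are not independent of that choice.

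Between 24746109 and 37056508 reads per library were assigned to genes, and values are given as normalized counts, which are reads divided by a size factor of the library. Replicates were described by the study as independent, with only 2 per population. The p-values thus rest on 2 libraries a group, with a variance that limma moderated across genes. The 7 pluripotency markers summed to 117919.6 and 126517 in the ESC libraries and to 786 and 1186 in the NPC libraries. The 5 neural precursor markers summed to 634 and 689.9 in ESCs and to 41029.7 and 44335 in NPCs, so both reference populations carried the markers of their labels. NPCs also carried other markers. In them the mesenchyme markers summed to 38902 and 57432, the oligodendrocyte precursor markers to 2775 and 1528, and the definitive endoderm and mesendoderm markers to 2694 and 2472. All 3 sums were higher than in ESCs, while those of endothelium and trophoblast were lower. Their part in the NPC values of the members was not tested. The 4 Y-linked genes, which the female line lacks, summed to 218 and 253 in the day 2 control libraries and to 125 and 223 in the day 2 IFNγ-treated libraries, against at most 12.5 in each of the other 20. Afp and Ttr, secreted products of mature visceral endoderm, did not exceed 2.59 and 1.76 in the 24 libraries. They are 2 of a list of 14 visceral endoderm products, and others on it were not low. The 14 summed to 17409 and 17177 in ESCs and to 25914 and 16577 in IFNγ-treated X-GFP–high cells, where Apoe alone had 25578 and 16259. The list was thus mixed, so the members are described as genes and no population is called endoderm.

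Promoter sequence is shown for Pdgfra, Dab2 and Cubn, whose levels were the most alike among the members over the 12 populations together with those of Foxa2. RefSeq promoters (GRCm38.p6) were at hand for 5 of the 9 members, namely Pdgfra, Foxa2, Dab2, Cubn and Amn, with 8 starts in all. The 250 bases before 1 start of each of the 3 genes are given 5′ to 3′ along the strand of the gene. Capitals mark matches to TGATAA or AGATAA, bound by GATA factors, on either strand.
Pdgfra, chr5:75152001-75152250, plus strand: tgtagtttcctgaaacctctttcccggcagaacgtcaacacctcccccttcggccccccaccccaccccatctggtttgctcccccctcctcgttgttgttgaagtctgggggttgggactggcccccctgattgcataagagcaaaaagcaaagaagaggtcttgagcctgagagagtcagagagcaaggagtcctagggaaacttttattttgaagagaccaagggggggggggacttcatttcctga
Dab2, chr15:6299539-6299788, plus strand: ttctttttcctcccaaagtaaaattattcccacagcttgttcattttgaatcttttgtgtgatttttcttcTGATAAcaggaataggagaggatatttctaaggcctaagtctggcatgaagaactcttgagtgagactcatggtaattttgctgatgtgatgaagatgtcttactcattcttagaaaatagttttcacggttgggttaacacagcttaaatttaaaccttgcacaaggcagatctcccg
Cubn, chr2:13491877-13492126, minus strand: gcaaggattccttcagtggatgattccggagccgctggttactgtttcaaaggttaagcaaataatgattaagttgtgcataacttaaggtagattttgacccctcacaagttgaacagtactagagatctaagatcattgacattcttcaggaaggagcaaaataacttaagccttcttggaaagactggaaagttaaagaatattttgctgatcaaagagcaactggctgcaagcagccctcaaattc
The Pdgfra window held neither of these motifs and no match to the interferon-stimulated response element bound by IRF factors. The Dab2 window held TGATAA beginning 179 bases before the start, and the Cubn window held no match. Among 32851 RefSeq promoter windows of the same length, 9.99% held AGATAA, 7.94% TGATAA and 2.98% the response element. These matches describe the letters in a window of 250 bases and say nothing about binding. Of the other 5 windows, 1 of 3 of Foxa2 held AGATAA, and the second Dab2 window and that of Amn held no match.

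Pdgfra, the receptor for platelet-derived growth factor (PDGF) A, is a gene on chromosome 5 (75152292 to 75198215, GENCODE vM21 on mm10, plus strand). Its normalized count was lowest in ESCs, at 33.4 and 43.8, while NPCs had 258 and 416. At day 2 it reached 541 and 415 without and 587 and 582 with IFNγ, the latter being the highest population mean of the 12. By day 5 the control libraries stood at 58.1 and 50.6 and the IFNγ-treated ones at 191 and 129, so the groups did not overlap. At day 7 the control libraries stayed low in every population, with 86.7 and 122 when X-GFP was negative, 79.1 and 87.8 when it was medium and 67 and 80.1 when it was high. With IFNγ the same 3 populations had 495 and 488, 413 and 445, and 147 and 163, each pair above its control. In the order of the 12 means, 6 of 11 neighboring pairs overlapped, among them X-GFP–negative IFNγ-treated cells and day 2 control cells.

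**Figure D1:**
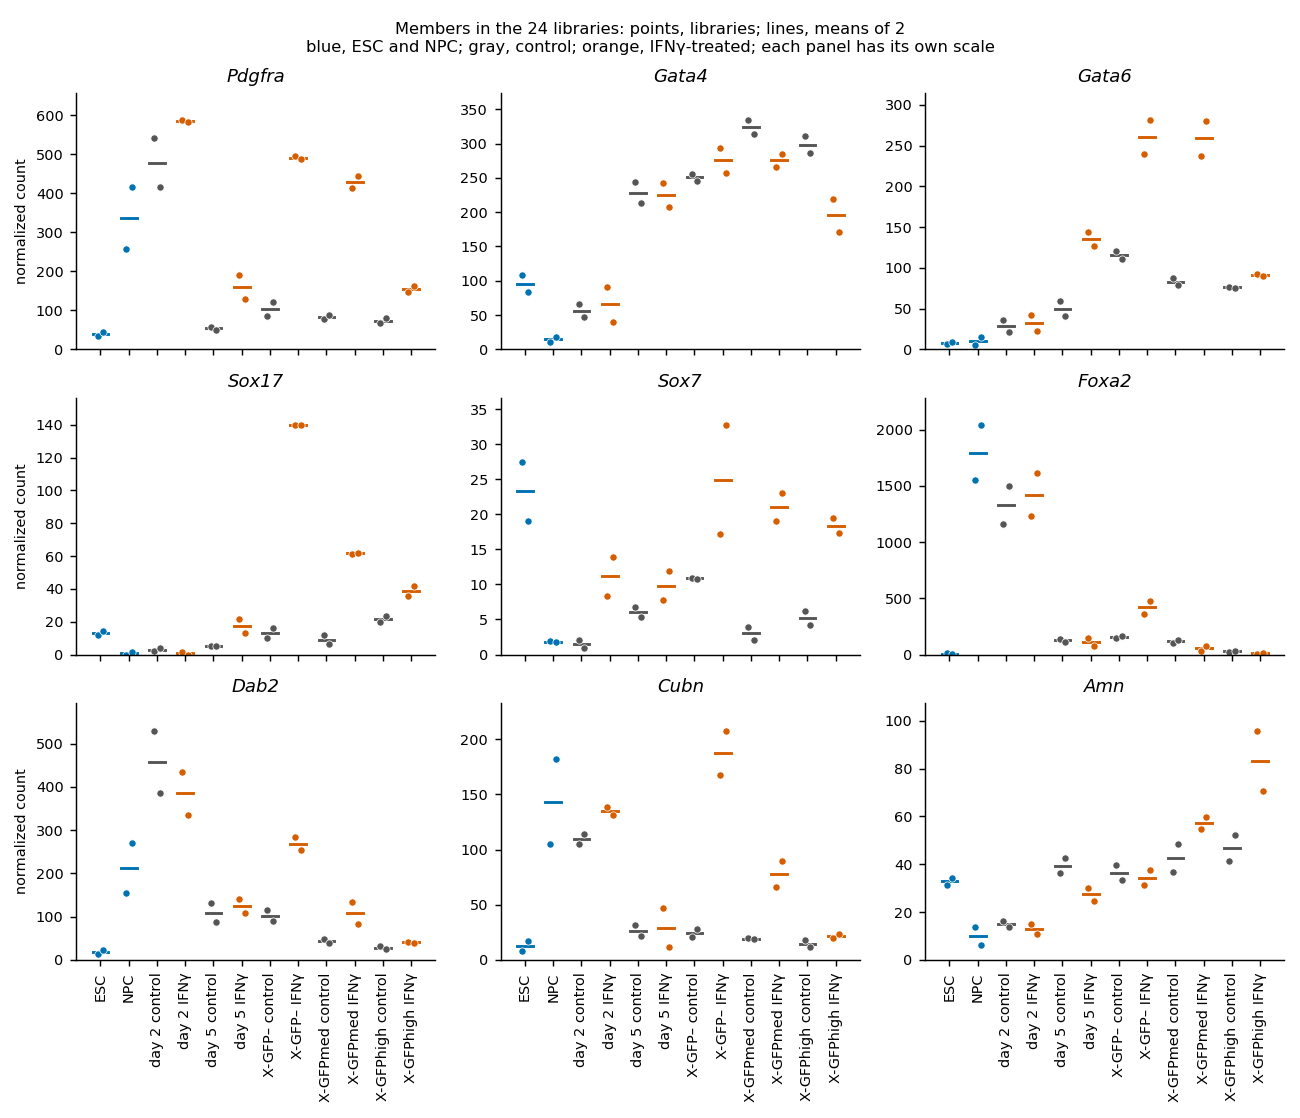
Normalized counts of the 9 members in the 24 libraries (y axis, linear, a scale for each panel) by population (x axis). Points are libraries and lines the means of 2. Blue marks ESCs and NPCs, gray control and orange IFNγ-treated cells. Pdgfra reached 488 and 495 in IFNγ-treated X-GFP–negative cells against 86.7 and 122 in control cells, while Amn overlapped between the same groups.

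Among the transcription factors, Gata4 and Gata6 were low in NPCs and rose during reprogramming. Gata4 (chromosome 14) was at 10.7 and 18.4 in NPCs and, without IFNγ, reached 66.2 and 46.6 at day 2 and 244 and 213 at day 5. It was highest in control X-GFP–medium cells, at 334 and 314, and was 108 and 83.7 in ESCs, so all day 5 and day 7 libraries, with either treatment, were above both ESC libraries. Gata6 (chromosome 18), the first of the GATA factors in the lineage, was low in ESCs, at 6.88 and 9.52. It rose from 58.9 and 40.9 in day 5 control cells to 121 and 111 in control X-GFP–negative cells. The highest Gata6 values were 239 and 281 in X-GFP–negative and 237 and 280.2 in X-GFP–medium IFNγ-treated cells, which overlapped.

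Sox17 and Sox7, the SRY-box factors of the lineage, had the lowest mean normalized counts of the members over the 24 libraries, on a scale not corrected for gene length. Sox17 (chromosome 1) had at most 4 reads in each NPC and day 2 library, and 11.8 and 14.3 normalized counts in ESCs. With IFNγ it was at 139.6 in both X-GFP–negative libraries, at 61.6 and 61.7 when X-GFP was medium and at 35.4 and 41.6 when it was high, with no overlap among these populations. Sox7 (chromosome 14) was at 27.5 and 19 in ESCs, and among the reprogramming populations only the IFNγ-treated day 7 ones overlapped with that range. Their Sox7 values were 17.2 and 32.7 for negative, 19 and 23 for medium, and 19.4 and 17.3 for high X-GFP. At day 2, Sox7 was 8.41 and 13.9 in IFNγ-treated libraries against 2.04 and 0.993 in control libraries, which are at most 2 reads, and its mean there was below the 10 that a test required.

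Foxa2 (chromosome 2) was highest in NPCs and lowest in ESCs. It had the highest normalized count of the members in NPCs, at 1549.9 and 2037, and without IFNγ stood at 1159.9 and 1502 on day 2 and 141 and 115 on day 5. ESCs had only 9.83 and 3.81, a ratio of 263 between the highest and lowest population means.

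Dab2 and Cubn followed Pdgfra and Foxa2 in being high early. Dab2 (chromosome 15) had 155 and 271 in NPCs, and without IFNγ it had 531 and 387 at day 2 and 130.4 and 87 at day 5. Cubn (chromosome 2) was at 105 and 182 in NPCs and at 31.1 and 21.3 in day 5 control cells. Both were high again in IFNγ-treated X-GFP–negative cells, with Dab2 at 285 and 253 and Cubn at 168 and 208. Amn (chromosome 12), which encodes the partner that carries cubilin to the membrane, did not share this pattern. It was lowest in NPCs, at 13.6 and 6.15, and highest in IFNγ-treated X-GFP–high cells, at 96 and 70.5. Per kilobase of exon, the highest population mean of Amn was 45.2 normalized counts and that of Cubn 12.6.

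At day 2, when IFNγ was present, no member passed the main test, which used no replicate block. Of the 9 members 7 passed the filter of a mean above 10, and limma called 0 of these 7 at an adjusted p below 0.1, against 8.49% of all 15697 genes tested. At an unadjusted p under 0.05 it also called 0 of the 7, and edgeR and DESeq2 called 0 as well. With the replicate number as a block, limma called Pdgfra (adjusted p = 0.00463) and Dab2 (adjusted p = 0.035). Nothing in the labels says that these numbers pair the libraries, so the result depends on the setting. In the main test the nearest was Pdgfra, 0.30 ± 0.14 (SE) higher on the log2 scale of the normalized count plus 1 (adjusted p = 0.274). Cubn differed by 0.30 ± 0.16 (adjusted p = 0.358) and Dab2 by -0.25 ± 0.19 (adjusted p = 0.522). Their receptor partner Lrp2 rose, from 508 and 672 to 1385 and 1856 (1.45 ± 0.18, adjusted p = 0.00728), and was the 1 called gene of the 6 cubilin and DAB2 partners. Pdgfb, a PDGF ligand, fell from 886 and 819 to 589.9 and 560.1 (-0.57 ± 0.09, adjusted p = 0.0166). The mesenchyme markers summed to 61207 and 55089 in IFNγ-treated and to 97065 and 71232 in control libraries, with 6 of 16 lower and 1 higher, and the part of feeder RNA in the day 2 values was not tested.

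At day 5, at the end of exposure, Pdgfra and Gata6 rose with IFNγ. limma called these 2 of 8 members tested, against 1.65% of 15133 genes called higher and 0.535% called lower. Pdgfra was 2.94 times as high as in control cells (1.51 ± 0.25, adjusted p = 0.0577). Gata6 went from 58.9 and 40.9 to 144 and 127, a ratio of 2.71 (1.44 ± 0.25, adjusted p = 0.0623). Sox17 stood at 21.6 and 13.4 against 5.05 and 5.33, with no overlap, but passed the filter only through its IFNγ-treated libraries and missed the threshold (adjusted p = 0.156), which it passed in a fit of all 24 libraries (adjusted p = 0.0616). Gata4 overlapped between the arms, at 242 and 208 against 244 and 213 (-0.02 ± 0.16, adjusted p = 0.957). Cubn was spread from 11.9 to 46.6 between the IFNγ-treated libraries, which span both control libraries. Of the related genes, Apoe, a lipid carrier of visceral endoderm, rose from 871 and 1119 to 1753 and 2677 (adjusted p = 0.0705), and Pth1r, a hormone receptor of parietal endoderm, from 52.2 and 45.3 to 105 and 127 (adjusted p = 0.0712). They were 1 of 5 visceral endoderm products tested and 1 of 2 called among 13 basement membrane and parietal endoderm genes, and limma called 0 of 4 other transcription factors, 0 of 9 PDGF and FGF genes and 0 of 6 uptake partners. The mesenchyme markers summed to 7719.5 and 9293 with and to 7999 and 7131 without IFNγ, or to 7177 and 9059 against 6851 and 6520.3 when Dcn was left out, and their part was not tested. Both calls among the members depended on single libraries, as Pdgfra missed the threshold without control replicate 1 (adjusted p = 0.118) or 2 (adjusted p = 0.133) and Gata6 without control replicate 2 (adjusted p = 0.146) or IFNγ-treated replicate 2 (adjusted p = 0.193).

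The effect of IFNγ at day 5 was not shown to differ from that at day 2. In the interaction over 8 libraries, limma called 0 of 7 members tested, against 0.676% of 15837 genes. The effect on Pdgfra was larger by 1.21 ± 0.30 at day 5 (adjusted p = 0.209) and that on Gata6 by 1.26 ± 0.52 (adjusted p = 0.492), and these 2 were the members at an unadjusted p under 0.05. edgeR called 0 and DESeq2 called 1 of the 7, Pdgfra (adjusted p = 0.0214).

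In day 7 X-GFP–negative cells, 7 of the 9 members were higher in the cells that had been treated with IFNγ, against 31.1% of 15531 genes called higher and 30.8% called lower. Because the members were chosen with earlier results of these data known, this count is no test of an excess. All 9 members had means above 10 in both groups. The receptor gene Pdgfra was 4.70 times as high (2.24 ± 0.17, adjusted p = 9.4e-06). Among the transcription factors, Sox17 went from 9.87 and 16.1 to 139.6 in both libraries, a ratio of 10.8 (3.37 ± 0.27, adjusted p = 1.5e-05). Foxa2 rose from 146 and 168 to 364 and 477 (1.40 ± 0.15, adjusted p = 8.15e-05), and Gata6 from 121 and 111 to 239 and 281 (1.16 ± 0.15, adjusted p = 0.000176). Sox7 also rose (1.06 ± 0.39, adjusted p = 0.0451), whereas Gata4 was at 294 and 257 against 256 and 246 and did not pass (0.13 ± 0.12, adjusted p = 0.383). Of the uptake genes, Cubn rose 7.70 times, from 20.8 and 27.9 to 168 and 208 (2.90 ± 0.22, adjusted p = 1.12e-05). Dab2 rose from 115 and 89.1 to 285 and 253 (1.40 ± 0.16, adjusted p = 0.000121), and Amn overlapped between the groups (-0.08 ± 0.26, adjusted p = 0.81). The median difference was 1.40 over the 9 members and 0.02 over all genes tested.

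The 6 calls other than Sox7 held under each alternative and without each library. Sox7 missed the threshold without control replicate 1 (adjusted p = 0.102), without IFNγ-treated replicate 2 (0.62 on the log2 scale, adjusted p = 0.384) and with DESeq2 (adjusted p = 0.167). Scaling the libraries to the same total moved the median of all genes by 0.16 in these cells, and of the genes called, 66.3% were then higher in place of 50.3%. Gata4 was then called higher as well (0.29, adjusted p = 0.0695), and Amn turned to 0.07.

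**Figure D2:**
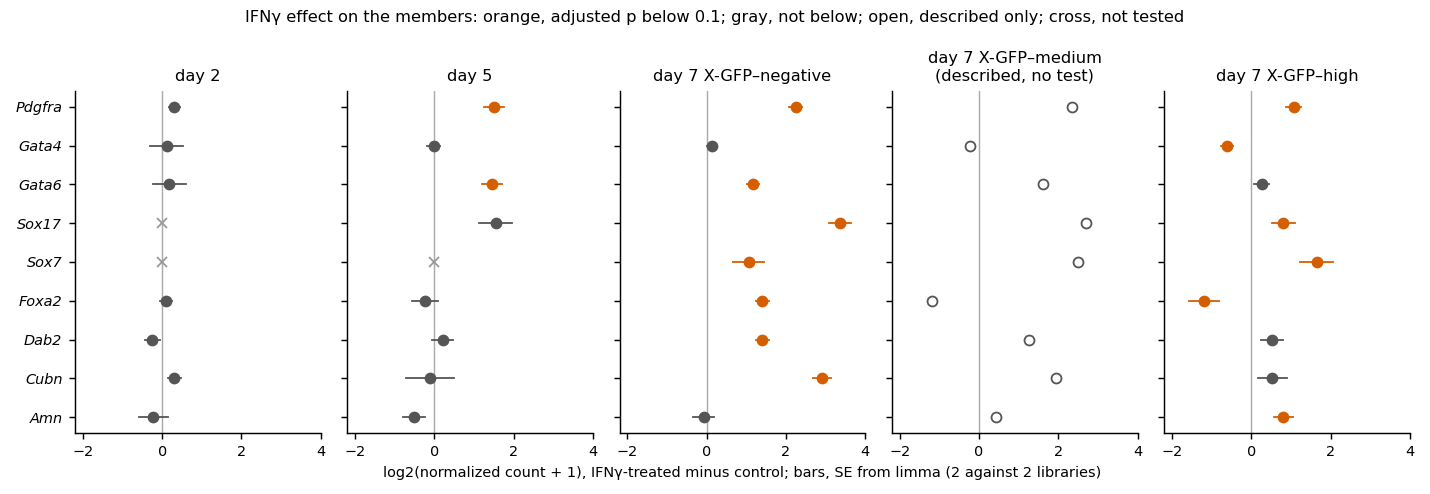
Difference between IFNγ-treated and control cells for each member (y axis) on the log2(normalized count + 1) scale (x axis) in the 5 populations. Points are differences of the means of 2 libraries, bars the SE from limma, orange points passed an adjusted p of 0.1, open points are described only and crosses mark members under the filter. In X-GFP–negative cells 7 points are orange and to the right of 0, from 1.06 for Sox7 to 3.37 for Sox17, and in X-GFP–high cells Gata4 and Foxa2 lie to the left at -0.62 and -1.19.

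Related genes moved in both directions in the same X-GFP–negative cells. Of 5 other extraembryonic endoderm transcription factors tested, 3 were higher and 1 lower, among them Eomes, which went from 298 and 293 to 585 and 695 (1.11 ± 0.11, adjusted p = 5.25e-05), and Hhex, from 71.3 and 68.7 to 146 and 126 (0.94 ± 0.17, adjusted p = 0.00154). Of 14 visceral endoderm products 7 were tested, with 3 higher and 3 lower. Cer1, a secreted Nodal and BMP inhibitor of anterior visceral endoderm, went from 25.2 and 16.1 to 493 and 438 (4.46 ± 0.22, adjusted p = 1.43e-06), while Bmp2 and Mttp were lower. Basement membrane genes were split, with 7 of 13 higher and 3 lower, Lama1 rising from 1470.2 and 2090.1 to 5354 and 4899 (1.55 ± 0.14, adjusted p = 2.36e-05) and Lamc1 falling (-0.35 ± 0.06, adjusted p = 0.00113). Lrp2 rose with Cubn and Dab2, from 510.2 and 461 to 1310.1 and 996 (1.23 ± 0.13, adjusted p = 5.9e-05), and of the 6 partners 2 were higher and 2 lower. Of the PDGF and FGF ligands and receptors 3 of 9 tested were higher and 4 lower. The second PDGF receptor gene, Pdgfrb, rose from 133 and 129 to 314 and 233 (1.04 ± 0.16, adjusted p = 0.000647), and the ligand gene of PDGFRA, Pdgfa, fell from 2019.8 and 1719.9 to 1123 and 1124 (-0.73 ± 0.09, adjusted p = 0.000137).

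Markers of other cell types were measured in these libraries. The 16 mesenchyme and fibroblast markers summed to 7525 and 8381 in IFNγ-treated and to 10348 and 9339 in control X-GFP–negative cells, with 3 of 14 tested higher and 3 lower, and none was at 0 in both libraries of either group, though 2 were at the floor of 3 reads in control cells. The decorin gene Dcn alone made up 4299.7 and 3801 of the control sums and 219 and 287 of the IFNγ-treated ones. Without it the other 15 markers summed to 7306 and 8094 in IFNγ-treated and to 6049 and 5537 in control cells. The order of the groups thus turned, with Dcn left out after the data were seen. In the remaining grades of day 7, the sum without Dcn was still lower with IFNγ, while Pdgfra was higher in every grade. The 5 oligodendrocyte precursor markers summed to 536 and 544 against 923 and 929, with Olig2 at no more than 1.1 in these libraries, and the Y-linked genes to at most 4.95. Of the 5 definitive endoderm and mesendoderm markers 3 were higher and 2 lower, and their sum was 515 and 542 against 284 and 233. Among the higher ones, Gsc went from 17.6 and 25.8 to 172 and 169 and Lhx1 from 8.78 and 6.44 to 144 and 167. These 2 genes were named after their values were seen, so no test is given for them. Lhx1 passed the filter only through its IFNγ-treated libraries. The 2 lower markers went the other way, so the list was mixed and no rise of the cell type is read from it. The 7 pluripotency markers summed to 34294 and 32124 against 20356 and 23226. The part of each of these cell types in the change of the members was not tested, and in bulk samples fewer cells of a type and less RNA per cell cannot be told apart.

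In X-GFP–medium cells, from which Pdgfra was chosen, 7 members were higher and 2 lower in both IFNγ-treated libraries than in both control libraries. Over all 15595 genes with a mean above 10, 42.5% were separated with higher and 36.7% with lower values, and nothing is read from the comparison. Sox17 and Sox7 had a mean above 10 only in the IFNγ-treated libraries. Pdgfra was 5.15 times as high, a log2 difference of 2.35. Gata6 went from 87 and 79.5 to 237 and 280.2 (1.62), Sox17 from 11.9 and 6.2 to 61.6 and 61.7 (2.70), and Dab2 from 48.4 and 39.2 to 134 and 82.6 (1.25). Cubn stood at 66.1 and 89.9 against 19.8 and 18.6, a difference of 1.95. Gata4 and Foxa2 were lower, Gata4 at 266 and 285 against 334 and 314 (-0.23) and Foxa2 at 32.5 and 80.5 against 106 and 129 (-1.17). Foxa2 thus differed from the X-GFP–negative cells, where its IFNγ-treated libraries were the higher ones, though this contrast was not tested. The mesenchyme markers summed to 3229.9 and 3973 in IFNγ-treated and to 9561 and 8858 in control cells. When Dcn was left out, the sums were 3064 and 3732 against 4541 and 4386.

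In X-GFP–high cells, those furthest in reactivation of the X chromosome by the sort, 4 members were higher and 2 lower with IFNγ, against 18.1% of 15598 genes called higher and 20.4% called lower. Pdgfra was 2.11 times as high (1.07 ± 0.19, adjusted p = 0.00134). Gata4 fell from 310.4 and 286 to 219 and 171 (-0.62 ± 0.15, adjusted p = 0.00993), and Foxa2 from 25.8 and 35.2 to 9.14 and 17.3 (-1.19 ± 0.38, adjusted p = 0.0344). Sox7 rose from 6.19 and 4.27 to 19.4 and 17.3 (1.65 ± 0.42, adjusted p = 0.0118). It passed the filter only through its IFNγ-treated libraries, so its call does not count as support for a rise of the members as a whole. Amn rose from 41.2 and 52.3 to 96 and 70.5 (0.81 ± 0.25, adjusted p = 0.0273), and Sox17 from 19.6 and 23.5 to 35.4 and 41.6 (0.81 ± 0.30, adjusted p = 0.0569). Gata6 (0.26 ± 0.20, adjusted p = 0.345), Dab2 (0.53 ± 0.28, adjusted p = 0.182) and Cubn (0.53 ± 0.36, adjusted p = 0.296) did not pass. Lrp2 rose, from 231 and 278 to 475 and 554 (1.02 ± 0.13, adjusted p = 0.000179), and Pdgfb fell from 352 and 353 to 153 and 148 (-1.22 ± 0.13, adjusted p = 4.93e-05). Of the related lists, limma called 0 higher and 1 lower of 5 transcription factors, 1 and 2 of 9 PDGF and FGF genes, 2 and 0 of 5 visceral endoderm products, 2 and 4 of 13 basement membrane genes, and 1 and 3 of 6 uptake partners. The mesenchyme markers summed to 1960.4 and 2076 with and to 4923 and 4132 without IFNγ, with 1 of 12 tested higher and 5 lower. When Dcn was left out, the sums were 1919 and 1957 against 2747 and 2464. The part of these markers was not tested.

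Only the call of Pdgfra held in X-GFP–high cells under every alternative and without each library. Control replicate 1 was needed for the calls of Gata4 (adjusted p = 0.102 without it), Sox17 (adjusted p = 0.29) and Amn (adjusted p = 0.208), and control replicate 2 for those of Sox17 (adjusted p = 0.11) and Foxa2 (adjusted p = 0.205). Without IFNγ-treated replicate 1, Foxa2 (adjusted p = 0.114) and Amn (adjusted p = 0.104) missed the threshold, and without replicate 2, Sox17 did (adjusted p = 0.167). With DESeq2 the calls were Pdgfra and Gata4.

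Compared with X-GFP–negative cells, the effect of IFNγ in X-GFP–high cells was smaller or more negative for 7 of the 9 members, against 13.3% of 15764 genes called in that direction and 9.43% in the other. The test took the libraries of both grades as independent, though the grades were sorted from the same SSEA1+ cells. For Pdgfra the difference between the effects was -1.17 ± 0.25 (adjusted p = 0.0116), for Sox17 -2.56 ± 0.40 (adjusted p = 0.00256) and for Cubn -2.37 ± 0.41 (adjusted p = 0.00393). For Foxa2, which rose in X-GFP–negative and fell in X-GFP–high cells, it was -2.60 ± 0.40 (adjusted p = 0.00256). These 4 differences passed under every alternative and without each library. Gata4 (-0.75 ± 0.20, adjusted p = 0.0283) missed the threshold without control X-GFP–high replicate 1 (adjusted p = 0.101), and Gata6 (-0.90 ± 0.22, adjusted p = 0.0203) missed it in a fit of all 24 libraries (adjusted p = 0.282). Dab2 (-0.87 ± 0.30, adjusted p = 0.0697) missed it without 5 of the 8 libraries, at adjusted p = 0.118 to 0.199. Sox7 (0.59 ± 0.57, adjusted p = 0.529) and Amn (0.89 ± 0.36, adjusted p = 0.116) did not pass. Scaling to the same total moved the median of all genes by -0.17 in this comparison, and of the genes called, 13.9% were then in the positive direction in place of 41.4%.

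Without IFNγ, the members moved in both directions between day 2 and day 5, as did genes at large. From day 2 to day 5, Pdgfra, Foxa2, Dab2 and Cubn fell and Gata4, Gata6 and Amn rose, 7 of 7 tested, against 35.6% of 15729 genes lower and 34.9% higher. Pdgfra fell by 3.10 ± 0.20 (adjusted p = 1.94e-05), Foxa2 by 3.37 ± 0.17 (adjusted p = 7.92e-06), Dab2 by 2.08 ± 0.24 (adjusted p = 0.000271) and Cubn by 2.04 ± 0.28 (adjusted p = 0.000585). Gata4 rose by 2.02 ± 0.23 (adjusted p = 0.000262) and Amn by 1.33 ± 0.32 (adjusted p = 0.0081). The call of Gata6 (0.82 ± 0.36, adjusted p = 0.083) was lost without day 2 control replicate 2 (adjusted p = 0.366) or day 5 control replicate 1 (adjusted p = 0.309) and with values scaled to the same total (adjusted p = 0.125), which moved the median of all genes by -0.13. Over the same interval the mesenchyme markers went from 97065 and 71232 to 7999 and 7131 and the Y-linked genes from 253 and 218 to 5.89 and 2.66, and the sort changed from CFSE-negative to SSEA1+. The part of feeder and mesenchyme RNA in the falls of Pdgfra, Dab2, Cubn and Foxa2 was not tested.

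**Figure D3:**
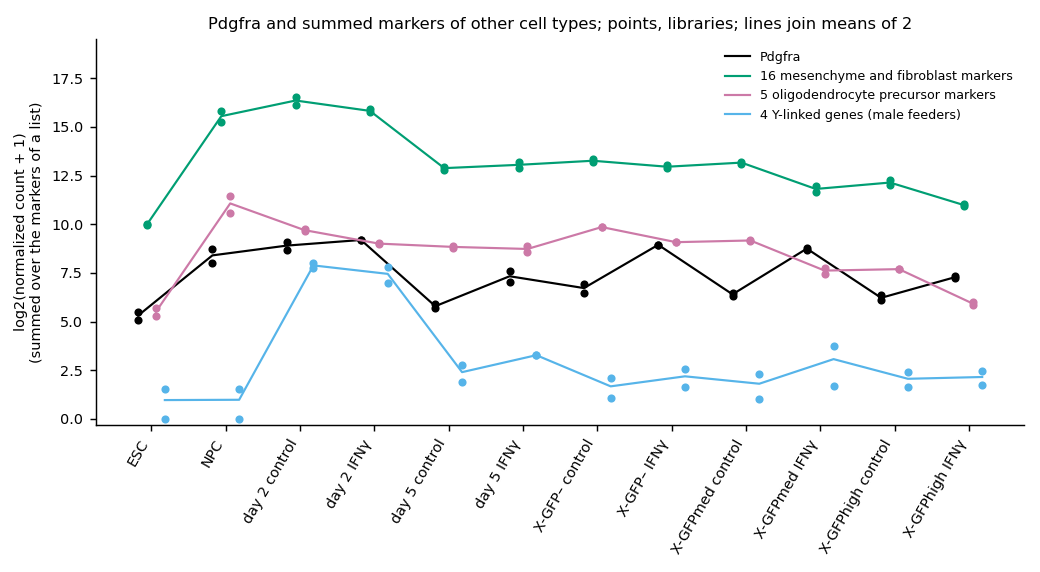
Pdgfra and the summed markers of 3 other cell types, as log2(normalized count + 1) on the y axis, in the 12 populations on the x axis. Points are libraries and lines join the means of 2. The mesenchyme sum (16 markers) falls from day 2 to day 5 together with Pdgfra. In X-GFP–negative cells it is at 7525 and 8381 with and 10348 and 9339 without IFNγ, an order that turns to 7306 and 8094 against 6049 and 5537 without Dcn.

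Earlier and later steps moved fewer members. Between NPCs and day 2 control cells, Gata4 (1.91 ± 0.37, adjusted p = 0.00578), Gata6 (1.55 ± 0.56, adjusted p = 0.0537) and Dab2 (1.14 ± 0.30, adjusted p = 0.0169) were higher at day 2 and Foxa2 (-0.43 ± 0.17, adjusted p = 0.0731) lower, 4 of 7 tested, against 31.6% of 15738 genes higher and 37.6% lower. Gata6 and Amn passed the filter only through the day 2 libraries, so the call of Gata6 does not count as support for a difference of the members as a whole. The call of Gata4 held without each library. That of Dab2 was lost without day 2 control replicate 1 (adjusted p = 0.183), that of Gata6 without NPC replicate 1 (adjusted p = 0.16), day 2 control replicate 1 (adjusted p = 0.283) or 2 (adjusted p = 0.133), and that of Foxa2 without NPC replicate 2 (adjusted p = 0.189), day 2 control replicate 1 (adjusted p = 0.407) or 2 (adjusted p = 0.106). The call of Foxa2 was also lost with edgeR (adjusted p = 0.116), with DESeq2 (adjusted p = 0.121), in the fit of all 24 libraries (adjusted p = 0.369) and without a filter (adjusted p = 0.134). Pdgfra missed the threshold (0.53 ± 0.26, adjusted p = 0.117) but passed it with edgeR (adjusted p = 0.0829), with DESeq2 (adjusted p = 0.0651) and in the fit of all 24 libraries (adjusted p = 0.0481). Without NPC replicate 2, Pdgfra was called higher at day 2 (adjusted p = 0.00271), and without NPC replicate 1, Cubn was called lower (adjusted p = 0.0264) and Amn higher (adjusted p = 0.0773). From day 5 to X-GFP–negative cells at day 7, Gata6 (1.22 ± 0.23, adjusted p = 0.00296) and Pdgfra (0.91 ± 0.23, adjusted p = 0.0114) rose, 2 of 7 tested, against 34.2% of 15225 genes higher and 29.5% lower. Pdgfra missed the threshold there without X-GFP–negative replicate 2 (adjusted p = 0.124), and Foxa2 passed it without day 5 replicate 1 (adjusted p = 0.0531).

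Foxa2, Dab2 and Gata6 were lower in control X-GFP–high than in control X-GFP–negative cells. Foxa2 was lower by 2.34 on the log2 scale (SE 0.21, adjusted p = 2.54e-06), Dab2 was at 30.9 and 24.6 against 115 and 89.1 (-1.84 ± 0.23, adjusted p = 3.17e-05), and Gata6 was lower as well (-0.60 ± 0.17, adjusted p = 0.00824). The call of Gata6 was lost in the limma fit of all 24 libraries (adjusted p = 0.166). In all 5 of 8 members tested were lower and 1 higher, against 39.3% of 15574 genes lower and 34.7% higher. The remaining calls, Pdgfra (-0.49 ± 0.21, adjusted p = 0.057), Cubn (-0.71 ± 0.35, adjusted p = 0.093) and Gata4 (0.25 ± 0.11, adjusted p = 0.0723), were each lost without 1 of several libraries. Pdgfra missed the threshold without X-GFP–negative replicate 2 (adjusted p = 0.404) or X-GFP–high replicate 1 (adjusted p = 0.232), and Cubn without X-GFP–negative replicate 2 (adjusted p = 0.324) or X-GFP–high replicate 2 (adjusted p = 0.383). Gata4 missed it without X-GFP–negative replicate 1 (adjusted p = 0.107) or 2 (adjusted p = 0.197) or X-GFP–high replicate 1 (adjusted p = 0.288), and Sox17 was called higher without X-GFP–negative replicate 2 (adjusted p = 0.0351). The calls of Pdgfra and Cubn were also lost without a filter (adjusted p = 0.143 and 0.151) and with DESeq2 (adjusted p = 0.206 and 0.37). These comparisons share their control libraries with those of IFNγ above, and they treat as independent the libraries of grades sorted from the same SSEA1+ cells. Scaling to the same total moved the median of all genes by 0.11, and Pdgfra (adjusted p = 0.127) and Cubn (adjusted p = 0.143) then missed the threshold, while Sox17 passed it (adjusted p = 0.0665), as it did with edgeR (adjusted p = 0.0859).

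Against ESCs, limma called 7 of the 9 members higher in control X-GFP–high cells and Sox7 lower (-1.96 ± 0.39, adjusted p = 0.000478), against 37.9% of 15427 genes higher and 37.8% lower. With DESeq2 or without a filter only Pdgfra, Gata4, Gata6 and Foxa2 were called higher. Gata6 was at 76.3 and 75.8 against 6.88 and 9.52 (3.08 ± 0.29, adjusted p = 4.55e-07), Gata4 was higher by 1.64 ± 0.16 (adjusted p = 5.49e-07), Foxa2 by 2.11 ± 0.42 (adjusted p = 0.000465) and Pdgfra by 0.92 ± 0.24 (adjusted p = 0.00318). Gata6, Foxa2 and Sox7 passed the filter only through the group in which they were high, so their calls do not count as support for a difference of the members as a whole. The calls of Sox17 (adjusted p = 0.0794), Dab2 (adjusted p = 0.0965) and Amn (adjusted p = 0.0995) were each lost without ESC replicate 1 (adjusted p = 0.221, 0.453 and 0.223) and X-GFP–high replicate 2 (adjusted p = 0.239, 0.107 and 0.392). Sox17 and Dab2 were also lost without X-GFP–high replicate 1 (adjusted p = 0.102 and 0.335) and Amn without ESC replicate 2 (adjusted p = 0.116).

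In IFNγ-treated X-GFP–high cells 6 of the 9 were higher than in ESCs and limma called 0 lower, against 33.2% of 15387 genes higher and 33.9% lower. Gata6 and Foxa2 passed the filter only through the X-GFP–high libraries, so the call of Gata6 does not count as support for a difference of the members as a whole. Pdgfra was 4.02 times as high (1.99 ± 0.22, adjusted p = 1.03e-05), Gata6 higher by 3.34 ± 0.30 (adjusted p = 2.65e-06), Sox17 by 1.49 ± 0.32 (adjusted p = 0.00177), Amn by 1.30 ± 0.25 (adjusted p = 0.000777), Dab2 by 1.16 ± 0.33 (adjusted p = 0.00863) and Gata4 by 1.02 ± 0.19 (adjusted p = 0.00068). Sox7, at 19.4 and 17.3 against 27.5 and 19, overlapped with ESCs (-0.30 ± 0.34, adjusted p = 0.465). Foxa2 passed the threshold without ESC replicate 1 (adjusted p = 0.0422) or IFNγ-treated replicate 1 (adjusted p = 0.0323), as did Cubn without ESC replicate 2 (adjusted p = 0.0258) or IFNγ-treated replicate 1 (adjusted p = 0.0862). The mesenchyme markers summed to 1960.4 and 2076 in these cells and to 989.6 and 1048 in ESCs, and their part was not tested.

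Over the 12 population means, the members formed 2 sets. Pearson's r of the log2 values was 0.92 between Pdgfra and Cubn, 0.91 between Foxa2 and Dab2, 0.88 between Dab2 and Cubn and 0.83 between Pdgfra and Dab2. In the other set it was 0.84 between Gata4 and Amn, 0.81 between Gata4 and Gata6 and 0.75 between Gata6 and Sox17. Between the sets it ran from -0.82 (Foxa2 and Amn) to 0.20 (Pdgfra and Gata6), with Pdgfra and Gata4 at -0.37. Sox7 was most like Sox17, with r of 0.69. The 12 points share 1 cell line and 1 normalization, and NPCs and day 2 cells, with high mesenchyme markers, weigh heavily on them.

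**Figure D4:**
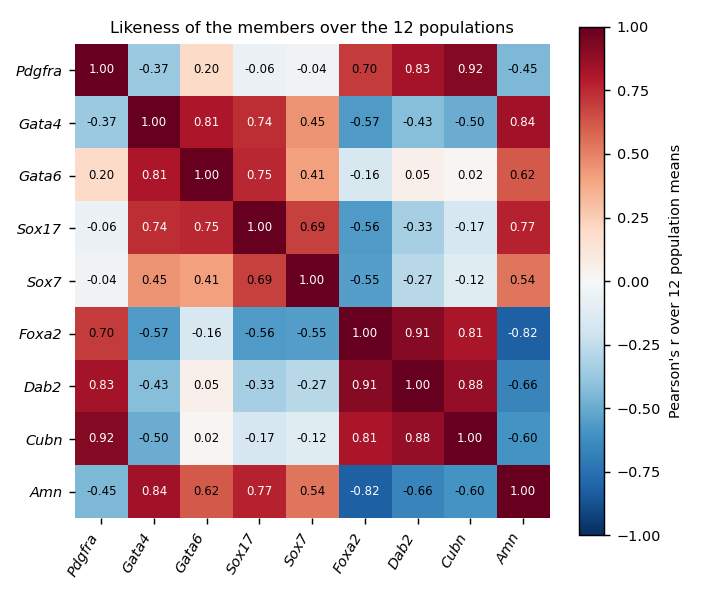
Pearson's r between each pair of members over the 12 population means of log2(normalized count + 1), in color and as numbers. Pdgfra, Foxa2, Dab2 and Cubn are alike, with r of 0.70 to 0.92, and Gata4, Gata6, Sox17 and Amn form the other block, with r of 0.62 to 0.84.

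Among 13843 genes with a mean above 10 and a highest population mean of at least 100, Snx32 (chromosome 19), a sorting nexin gene, was the most like Pdgfra by Pearson correlation, with r = 0.943. Cubn came next at 0.920, followed by Gramd1a (0.899), Apeh (0.898) and Ulk4 (0.891). Snx32 was at 121 and 106 in IFNγ-treated against 56 and 56.9 in control X-GFP–negative cells, and at 128 and 86.8 against 46.5 and 47.5 in X-GFP–medium cells. Its likeness to Pdgfra was measured over these same populations, so these levels are a description. Apeh was alike in shape but moved over a narrow range, at 1012 and 1002 against 884 and 878. The order depended on the measure, as Snx32 was 5th and Cubn 129th by Spearman correlation. Of the other members, Dab2 ranked 43rd, Foxa2 513th and Gata6 5207th, and Pth1r, a parietal endoderm gene, ranked 13th (r = 0.87).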

How the data were processed

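RNA-seq of 24 libraries was used, with groups taken from the labels. Ribosomal RNA was removed before stranded libraries were made. The authors aligned read pairs with STAR and WASP to mm10 with strain variants masked, counted them per gene with HTSeq 0.6.1, and divided the counts by size factors of DESeq2. The annotation release and the strand setting are not given in the sources used here. The deposited signal values were these normalized counts, and 100% were whole multiples of 1 step per library (tolerance 0.01 reads), so whole reads could be recovered.

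Symbols came from GENCODE vM21, which held 95.2% of the identifiers. Cubn overlaps Gm13270 and Dab2 overlaps Gm16311, both on the opposite strand, at mean normalized counts of 3.56 and 0.

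Differences were tested with limma 3.58.1 (R 4.3.3; lmFit, eBayes with trend, two-sided) on log2(normalized count + 1), which understates changes of low genes, in the 4 libraries of a comparison or the 8 of an interaction. A gene entered a test when its mean over those libraries exceeded 10, with Benjamini-Hochberg adjustment over all of them and a threshold of 0.1, as in the study. Interactions were fitted across both pairs of groups. SD are over 2 libraries per group, and SE come from the limma variance, which is moderated across genes. The procedure was tested on simulated data. Values of 3 reads or fewer in each library of a group were treated as at the floor, which covers counting error only.

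Alternatives were a pseudocount of 0.1, no filter, scaling to the same total, 1 fit of all 24 libraries, the replicate number as a block, edgeR 4.0.16 (quasi-likelihood, TMM) and DESeq2 1.42.0 on whole reads, and leaving out each library. A crossed replicate block and a mesenchyme sum without Dcn were added after seeing the data. Members, gene lists, motifs and comparisons were chosen with earlier results of these data known. Genes named were all members, the 5 genes most like Pdgfra, and from 5 lists of related genes up to 3 called genes per direction with the largest change, whose libraries did not overlap and whose higher group mean reached 100. One motif of the promoter search is not reported here. A deposited table of X-chromosome allelic proportions was not used here. Python 3.11.15, numpy 2.4.6, pandas 2.3.3 and matplotlib 3.10.9 were used.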

Additional observations from a re-analysis of the deposited data

Results flagged for a closer look

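Opposite or unequal responses to IFNγ were flagged for 8 members. In the interaction below, 13.3% of 15764 genes were called in the negative direction. The effect in X-GFP–high cells was lower than in X-GFP–negative cells, by the interaction test in limma, by -1.17 for Pdgfra, -0.75 for Gata4, -0.90 for Gata6, -2.56 for Sox17, -2.60 for Foxa2, -0.87 for Dab2 and -2.37 for Cubn on the log2 scale. Foxa2 and Gata4 moved in opposite directions in all libraries of X-GFP–negative and X-GFP–medium cells, with effects that differed by 2.58 and 0.37, which was not tested. Gata4 had not passed limma in X-GFP–negative cells (adjusted p = 0.383). Amn was lower with IFNγ in both libraries at day 5 and higher in both libraries of X-GFP–medium and of X-GFP–high cells at day 7, with effects that differed by -0.95 and -1.33, also not tested. Amn had not passed limma at day 5 (adjusted p = 0.377). In X-GFP–medium cells 42.5% of all genes were separated with higher and 36.7% with lower values, so nothing is read from these directions.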

How the results depend on the processing

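The number of members called stayed within 1.5 times the reported one in 118 alternatives and went beyond it in 23. Depth limited Sox7 and Sox17 most, with at most 2 reads of Sox7 in each NPC and day 2 control library. In 1 fit of all 24 libraries it was 1 at day 2, 2 for the interaction of day 5 with day 2 and 4 for that of X-GFP–high with X-GFP–negative cells. Without a filter it was 0 at day 5, 3 in X-GFP–high cells, 2 for day 2 against NPCs and 5 for control X-GFP–high cells against ESCs, and with DESeq2 it was 2, 3, 5 and 1 in X-GFP–high cells with IFNγ, control X-GFP–high against X-GFP–negative cells, the same against ESCs and the interaction of day 5 with day 2. Leaving out each library gave 0 to 2 members at day 5, 3 to 4 in X-GFP–high cells, 1 to 5 for day 2 against NPCs, 1 to 3 for X-GFP–negative cells against day 5, 4 to 7 for control X-GFP–high cells against ESCs, and 5 to 7 for the interaction of X-GFP–high with X-GFP–negative cells. Single members that were not called turned sign in some settings. Cubn at day 5 was at 0.14 with edgeR and 0.15 with DESeq2, and Amn in X-GFP–negative cells at 0.072 with equal totals. Without single libraries, the IFNγ difference at day 2 ran from -0.48 to 0.71 for Gata4, -0.25 to 0.61 for Gata6 and -0.099 to 0.29 for Foxa2. At day 5 it ran from -0.13 to 0.087 for Gata4, -0.70 to 0.23 for Foxa2, -0.080 to 0.50 for Dab2 and -1.06 to 0.83 for Cubn, and for Amn in X-GFP–negative cells from -0.21 to 0.052. Cubn ran from -0.73 to 0.059 for day 2 against NPCs and from -0.24 to 0.79 for control X-GFP–high cells against ESCs. For X-GFP–negative cells against day 5 the range was -0.36 to 0.22 for Dab2, -0.36 to 0.17 for Cubn and -0.23 to 0.0077 for Amn, and for the interaction of day 5 with day 2 it was -0.73 to 0.46 for Gata4, -0.80 to 0.14 for Foxa2 and -1.36 to 0.53 for Cubn. The cause was not tested.

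Nothing in the labels says that the replicate numbers pair the libraries. The deviations of same-numbered libraries from their group means correlated at 0.41 at day 2, 0.36 at day 5 and -0.15 for day 2 against NPCs. With the replicate block, 2 members were called at day 2, Pdgfra (adjusted p = 0.00463) and Dab2 (adjusted p = 0.035), and 1 in the interaction of day 5 with day 2, Pdgfra (adjusted p = 0.0734). Sox17 was gained at day 5 (adjusted p = 0.013) and for control X-GFP–high against X-GFP–negative cells (adjusted p = 0.0834), and Dab2 (adjusted p = 0.121) and Amn (adjusted p = 0.106) were lost for control X-GFP–high cells against ESCs. With crossed numbers, 5 members were called for day 2 against NPCs.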
